A study of Danio rerio with 4 samples.

Results

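Cassette exons of at most 60 bases were followed in the hearts of zebrafish larvae, as regions described across 4 conditions. A cassette exon is one that some transcripts of a gene include and others skip between the same flanking exon ends. The deposited transcript tables held 1418 including entries for exons of 60 bases or less, out of 4090 for cassette exons of any length. Of these, 1208 had a skipping entry that joined the same flanks and 210 did not. The inclusion share is the FPKM (fragment number scaled by transcript length and library size) of the including form, as a percent of the FPKM of both forms. It was taken for the 646 short exons whose forms summed to at least 3 FPKM in all 4 libraries, out of 1678 such exons of any length; the other 1032 were longer than 60 bases. The remaining 562 paired short exons were under this minimum in at least 1 library, 288 of them in all 4. Another 34 were under it in both injured libraries and in neither uninjured one, and 23 in both uninjured libraries and in neither injured one. Exons whose forms reached the minimum only in injured or only in uninjured hearts are therefore not among the 646.

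Every larva carried Tg(vmhc:mCherry-NTR), in which the promoter of a ventricular myosin heavy chain gene drives mCherry and nitroreductase, and hearts were taken at 5 dpf (days post fertilization). Nitroreductase makes the drug metronidazole (MTZ) toxic to the cells that hold it, so the injury acts on ventricular cardiomyocytes first. The injured SIS3 group had 5 mM MTZ at 72 hpf (hours post fertilization) for 4 hours and then 2 µM SIS3, a compound that blocks phosphorylation of Smad3, from 76 to 124 hpf. The injured DMSO group had the same MTZ and then 0.2% DMSO, the vehicle, over the same hours. The uninjured SIS3 and uninjured DMSO groups had the same compounds without injury, and the labels do not say if these larvae also met MTZ or how many hearts were pooled. Each group had 1 library, so no value below has a replicate check, a test or a p-value, and differences are described by their size alone.

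Very short exons are hard for the splicing machinery to recognise and often need helper proteins that bind nearby introns. Exons of this kind are best known from neurons and from striated muscle, where many have a length that is a multiple of 3 and so add or remove a few amino acids without shifting the reading frame. In heart and skeletal muscle, proteins of the Rbfox, Mbnl, Celf and Rbm24 families are known regulators of alternative exons, and in neurons Srrm4, Nova and Elavl proteins are. Their host genes often encode proteins of the cytoskeleton, of membrane traffic, of cell adhesion and of ion transport.

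The libraries held heart tissue by their markers. The summed level of 11 cardiomyocyte genes found was 9454 FPKM in injured SIS3, 9550 in injured DMSO, 9949 in uninjured SIS3 and 11177 in uninjured DMSO hearts. This sum joined genes that moved in opposite directions. Past a 2-fold limit, 3 rose and 3 fell with injury in SIS3, and 2 rose and 3 fell in DMSO. Of all 12795 genes compared, 6.32% rose and 6.45% fell in SIS3, and 6.38% rose and 8.57% fell in DMSO. The level of nppa was 3676 and 3718 FPKM in injured SIS3 and DMSO hearts, against 1073 and 983 in uninjured ones. For actc1a it was 1299 and 1263 FPKM, against 3364 and 3256, in the same order. In each library 1 of the 11 was not listed, namely cmlc1 in injured SIS3, a TNNT2 copy in injured DMSO, and myh6 in both uninjured libraries. Markers of neurons and eye summed to 12.4 and 7.52 FPKM in the injured SIS3 and injured DMSO libraries, against 131 and 205 FPKM in the uninjured SIS3 and uninjured DMSO libraries. Of these 17 genes, 8 and 14 were not listed in the injured SIS3 and injured DMSO libraries, against 0 and 1 in the uninjured SIS3 and uninjured DMSO libraries. Macrophage markers went the other way, with 194 and 294 FPKM in the injured SIS3 and injured DMSO libraries, against 32.7 and 26.7 FPKM in the uninjured SIS3 and uninjured DMSO libraries, and none of the 7 genes was unlisted. The sum of epicardium and fibroblast markers was also higher after injury, at 799 and 1064 FPKM in injured SIS3 and injured DMSO, against 429 and 383 FPKM in uninjured SIS3 and uninjured DMSO hearts. Of these 8 genes, 3 were at least 2-fold higher under each compound, while pdgfra was lower in SIS3, with a log2 difference of -1.36. Both POSTN copies were also lower in SIS3, by less than 2-fold. Pancreas and gut markers were lower, at 367 and 219 FPKM in injured SIS3 and injured DMSO, against 1011 and 859 FPKM in uninjured SIS3 and uninjured DMSO hearts. Skeletal muscle markers summed to 547 and 368 FPKM in injured SIS3 and injured DMSO, against 791 and 956 FPKM in uninjured SIS3 and uninjured DMSO hearts. Epithelium markers summed to 357 and 320 FPKM, against 545 and 964 FPKM, in the same order. The genes ckma and krt4 gave most of these sums. The median log2 difference for injury in SIS3 and in DMSO was -0.25 and -0.96 over 8 skeletal muscle genes. Over 8 epithelium genes it was 0.44 and -0.57, so the typical epithelium gene was not lower in SIS3. Liver markers stood at 1571 FPKM in injured SIS3 hearts, against 198, 97.7 and 180 FPKM in injured DMSO, uninjured SIS3 and uninjured DMSO hearts. Whether these other cells or the heart's own cells gave a change in a share was not tested. In whole hearts, a changed mix of cells and a changed splicing choice within a cell cannot be told apart. The libraries listed 51417 (injured SIS3), 47926 (injured DMSO), 56660 (uninjured SIS3) and 53363 (uninjured DMSO) entries, and read depth is unknown.

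The 646 short exons lay in 541 loci and at 639 distinct positions, since an exon with more than 1 pair of flanks was counted once for each. Their length ran from 6 to 60 bases with a median of 38.5, and 21 bases was the commonest length with 41 exons. A length that is a multiple of 3 was found in 511 of the 646 (79.1%), against 63.3% of the longer cassette exons. All 14 exons of up to 15 bases were multiples of 3, as were 87.9% of the 190 exons of 16 to 30 bases, 73.6% of the 242 of 31 to 45 bases and 76.0% of the 200 of 46 to 60 bases. The share of whole-codon lengths was thus highest among the shortest exons, and the length rule did not use it. The intron before a short exon had a median of 1713 bases, against 2064 bases for longer cassette exons, and it was 200 bases or less for 13.2% of short exons, against 9.01% of longer ones. The intron after the exon differed less, with medians of 2005.5 and 2146.5 bases. It was 200 bases or less for 9.91% of short exons and 9.11% of longer ones.

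**Figure D1:**
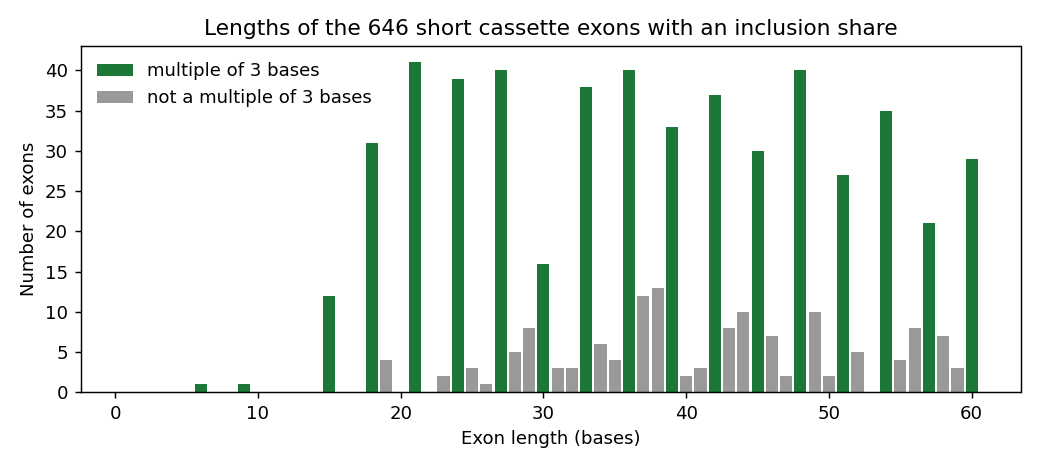
Number of short cassette exons (y axis) at each length in bases (x axis), with multiples of 3 in green and other lengths in grey. The green bars hold 511 of the 646 exons, and 21 bases is the commonest length with 41 exons.

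Whether the FPKM estimates themselves depend on exon length was not tested. By these estimates, short exons were mostly skipped. Their median inclusion share was 28.4% in injured SIS3, 24.3% in injured DMSO, 30.7% in uninjured SIS3 and 29.3% in uninjured DMSO hearts, against 52.4%, 51.4%, 54.0% and 55.1% for the longer exons in the same order of libraries. The class of 46 to 60 bases was the most included of the 4 length classes, with medians of 57.2%, 45.4%, 47.5% and 47.5% in that order. A share under 10% in all 4 libraries was found for 107 short exons, a share over 90% in all 4 for 57, and a share between these limits in all 4 for 165. These are 16.6%, 8.82% and 25.5% of the 646, beside 14.2%, 14.0% and 24.6% of all 1678 cassette exons. For 200 of the 646 (30.96%) the 4 shares lay within 10 points of each other, against 37.7% of the longer exons. At the other end, 37 short exons (5.73%) had a range of 50 points or more over the 4 libraries, beside 4.47% of all cassette exons. Across the 646 exons the Pearson correlation of shares between any pair of libraries was between 0.889 and 0.919. It is given as a description, since exons share genes, transcripts and the minimum FPKM.

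The shortest members had shares of very different size. A 6-base exon of PSAP, which encodes the lysosomal protein prosaposin, was included at 0%, 0.165%, 0.112% and 0% in injured SIS3, injured DMSO, uninjured SIS3 and uninjured DMSO hearts. SLC8A1, the sodium-calcium exchanger of cardiomyocytes, had a 15-base exon (chromosome 11, 30311053 to 30311067, minus strand) at 99.6%, 92.3%, 90.5% and 91.1% in that order. A 9-base exon of homer3b, a scaffold protein of synapses, had its including form listed in 1 library only, with a share of 65.9% in uninjured SIS3 hearts. The 15-base exon of the splicing factor gene U2AF2 was at 10.8%, 0.0134%, 7.74% and 0.00423%, and a pair of 15-base exons of zgc:158270 did not pass 18.8% in any library. Near-constant skipping and near-constant inclusion thus both occurred among exons of 15 bases or less. Gene symbols are printed as the gene name table gives them, many in human-style capitals, and chromosome positions are those of the deposited tables on GRCz10.

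At the length limit, the 3 exons of 58 to 60 bases with the highest level were a 58-base exon of rbfox1l, which encodes a muscle splicing regulator, a 60-base exon of SPTAN1 and a 60-base exon of mybphb, a myosin-binding protein gene. Their shares in injured SIS3, injured DMSO, uninjured SIS3 and uninjured DMSO hearts were 100%, 91.8%, 100% and 100% for rbfox1l and 0%, 0%, 2.27% and 0.790% for SPTAN1. For mybphb the share rounded to 100% in each. Just outside the limit, 63-base exons stood at 100%, 100%, 99.6% and 99.1% in SNRPE, at 18.5%, 18.4%, 34.3% and 20.8% in SPTAN1, and at 61.5%, 53.8%, 66.1% and 55.2% in PLOD2, in the same order.

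The injury comparisons asked how shares differed between injured and uninjured hearts under each compound. A difference of 20 percentage points or more is called higher or lower here. In DMSO, 55 short exons had a higher share in injured than in uninjured hearts, 8.51% of the 646 beside 7.33% of all 1678 cassette exons, and 72 had a lower one, 11.1% beside 9.71%. In SIS3, 54 were higher (8.36% beside 7.09%) and 65 lower (10.1% beside 8.64%). The compound comparisons gave counts of a like size. After injury, SIS3 went with a higher share than DMSO for 55 short exons (8.51% beside 7.27%) and a lower one for 34 (5.26% beside 5.84%). Without injury, 57 were higher in SIS3 than in DMSO (8.82% beside 6.50%) and 52 lower (8.05% beside 6.02%). Most of these shares lie near their background, and the widest distance was that for SIS3 without injury. The median difference was 0 points in all 4 comparisons.

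**Figure D2:**
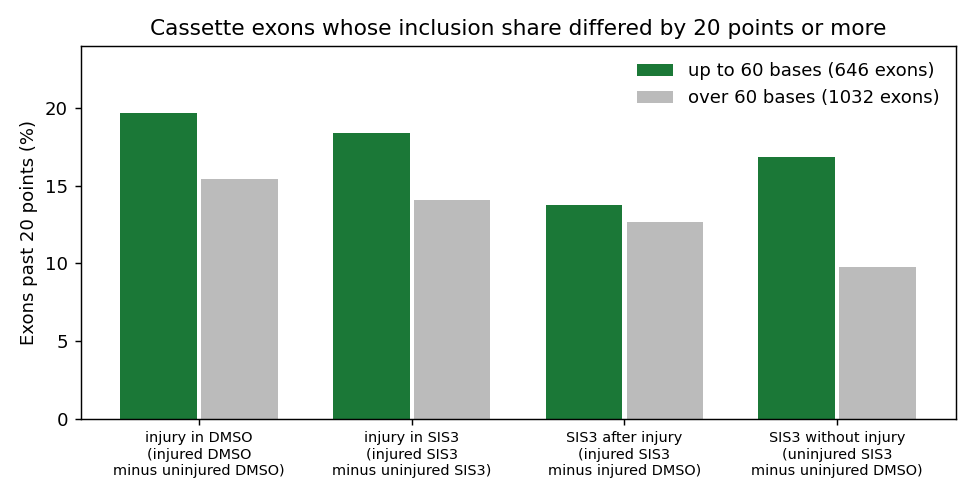
Percent of cassette exons whose inclusion share differed by 20 points or more (y axis) in each of the 4 comparisons (x axis), for 646 exons up to 60 bases in green and 1032 longer exons in grey. Short exons stand at 19.7%, 18.4%, 13.8% and 16.9%, against 15.4%, 14.1%, 12.7% and 9.79% of the longer exons.

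Level went with these counts. For injury in DMSO, 22.9% of the 118 short exons with a mean of 3 to 6 FPKM over both forms were past 20 points, and 12.7% of the 110 with 30 FPKM or more. Of the 127 exons called in that comparison, 57 had a form that was not listed in 1 of its libraries. The same was true of 34 of 119 for injury in SIS3, 32 of 89 for SIS3 after injury and 40 of 109 for SIS3 without injury. Over all cassette exons it was 114 of 286 for injury in DMSO and 95 of 264 for injury in SIS3. It was 91 of 220 for SIS3 after injury and 82 of 210 for SIS3 without injury. Both forms were listed in all 4 libraries for 334 short exons. Of these, 20.7%, 22.2%, 15.3% and 17.1% were past 20 points in the same order of comparisons. Of all 646 it was 19.7%, 18.4%, 13.8% and 16.9%, so calls were not more frequent where a form was unlisted. The including form was not listed for 120 and 160 of the 646 exons in the injured SIS3 and injured DMSO libraries, against 79 and 100 in the uninjured SIS3 and uninjured DMSO libraries. These are 18.6%, 24.8%, 12.2% and 15.5%, beside 15.6%, 20.2%, 11.6% and 13.6% of all cassette exons. The higher counts in the injured libraries were thus not particular to short exons. With no read counts, a form that is not listed can be a failed estimate, and a share of 0% or 100% is read here only as that form not being listed.

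The injury comparisons in SIS3 and in DMSO share no library. Of the short exons, 15 were higher and 12 lower in injured hearts under both compounds, while 13 were past 20 points in opposite directions. Over all 1678 cassette exons, 2.03% were higher, 2.32% lower and 1.37% opposite. Short exons thus had 27 in the same direction and 13 in opposite ones, and longer exons 46 and 10. The compound comparisons after and without injury share no library either. There 8 short exons went the same way and 13 opposite ways, while longer exons had 18 and 8. Over all 1678 cassette exons, 1.55% went the same way and 1.25% opposite ways. Across the 646 exons the Pearson correlation of the injury differences was 0.136, against 0.217 across the longer exons, and that of the compound differences was -0.0438, against 0.0433. Most large differences seen in 1 pair of libraries were therefore not seen in the other pair.

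**Figure D3:**
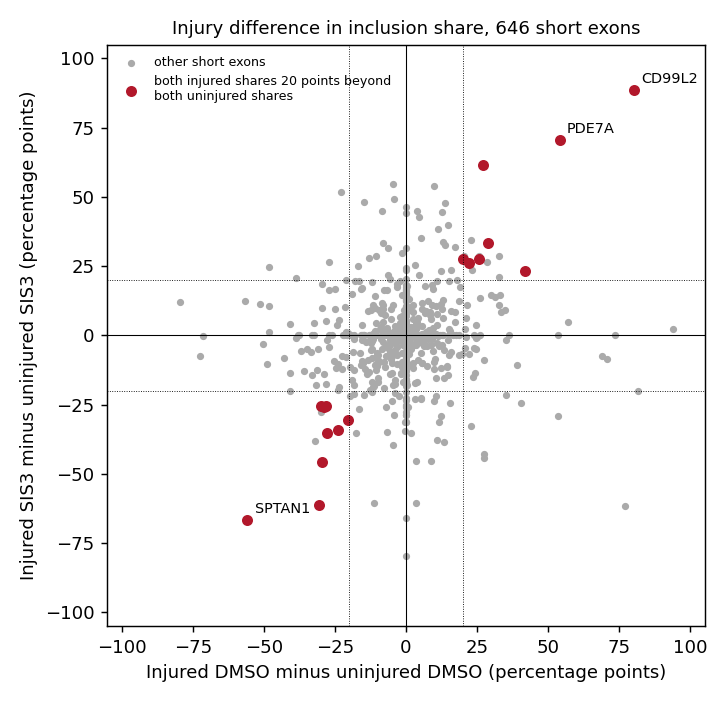
Injury difference in inclusion share of each of 646 short exons, in percentage points, in DMSO (x axis) and in SIS3 (y axis); dotted lines mark 20 points. Red points are the 17 exons whose injured shares both lie at least 20 points beyond both uninjured shares, with CD99L2 and PDE7A at the upper right and SPTAN1 at the lower left.

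In 17 short exons both injured shares lay at least 20 points beyond both uninjured shares. Of these, 8 lay above (1.24% of the 646, beside 1.43% of all 1678 cassette exons) and 9 below (1.39% beside 1.91%). The longer exons gave 16 and 23. Short exons were thus not separated by injury more often than cassette exons of any length. Of the 17, 16 had a length that is a multiple of 3, beside 79.1% of all short exons. With 1 FPKM added to each form, 7 of them came closer than 20 points, namely CTDSPL, DENND5B, EDEM3, GMDS, HSPG2, bcam and vaspb.

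**Figure D4:**
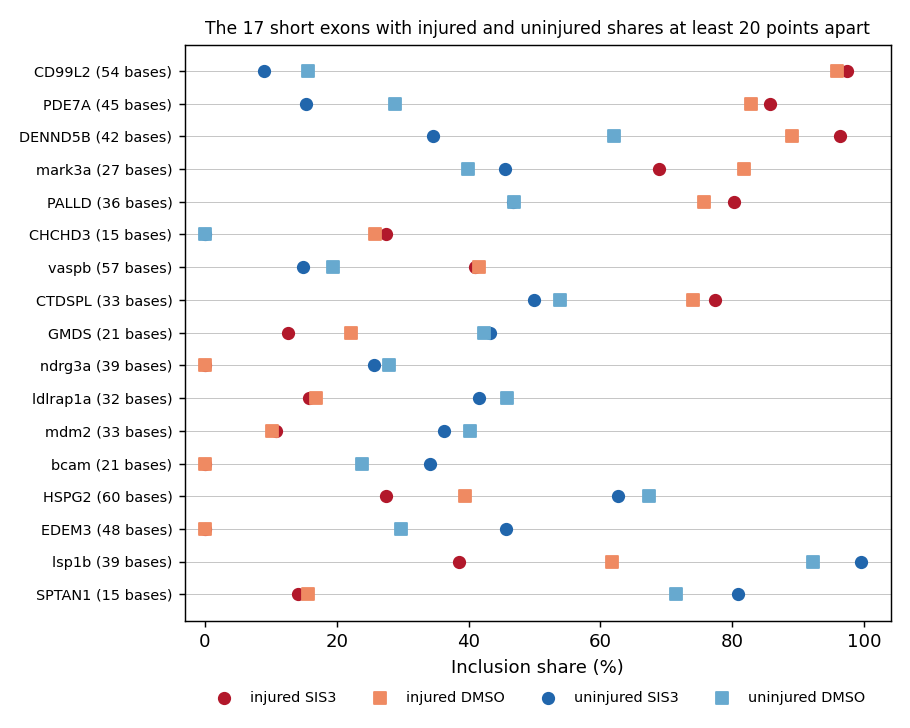
Inclusion share in percent (x axis) of the 17 short exons (rows) in the injured SIS3 and injured DMSO libraries (reds) and the uninjured SIS3 and uninjured DMSO libraries (blues); circles are SIS3 and squares DMSO, and a circle that cannot be seen lies under the square. In the upper 8 rows the reds lie right of the blues, and in the lower 9 rows left of them.

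Among genes of the cytoskeleton, the clearest case was SPTAN1 (ENSDARG00000019231), which encodes alpha-II spectrin, a long protein that links actin filaments under the cell membrane. Its 15-base exon lies on chromosome 21 at 13093851 to 13093865 on the plus strand. The share was 14.2% in injured SIS3 and 15.7% in injured DMSO hearts, against 80.9% in uninjured SIS3 and 71.5% in uninjured DMSO hearts. That the injured and uninjured libraries do not overlap follows from the rule that set this exon apart. The gap between the injured and uninjured libraries is wider than the whole spread within each pair. The including form was at 5.31 and 5.29 FPKM in injured SIS3 and injured DMSO, against 46.8 and 33.3 FPKM in uninjured SIS3 and uninjured DMSO hearts. The skipping form went the other way, with 32.2 and 28.4 FPKM in injured SIS3 and injured DMSO, against 11.05 and 13.3 FPKM in uninjured SIS3 and uninjured DMSO hearts. The sum of both forms, scaled between libraries, was also lower after injury by less than 2-fold, with log2 differences of -0.69 in SIS3 and -0.68 in DMSO. Both forms summed to 37.5, 33.7, 57.8 and 46.6 FPKM in injured SIS3, injured DMSO, uninjured SIS3 and uninjured DMSO hearts. The forms of a 48-base exon of this gene summed to 108, 109, 150 and 144 FPKM in that order. The share of the 15-base exon therefore covers only part of the SPTAN1 transcripts. Its including value in uninjured SIS3 and skipping value in injured DMSO equalled skipping values of the 63-base exon in the same libraries.

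The other short exons of SPTAN1 did not follow this exon. A 33-base exon stood at 99.0%, 99.8%, 98.8% and 90.6% in injured SIS3, injured DMSO, uninjured SIS3 and uninjured DMSO hearts, and the 60-base exon given above was almost always skipped. A 48-base exon (13087349 to 13087396) differed by compound and not by injury, and is described with the compound comparisons. In mammals too, SPTAN1 transcripts are known to vary by several short exons, and whether these are the same exons was not examined.

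PALLD (ENSDARG00000040009) encodes palladin, a scaffold of actin bundles and focal adhesions. Its 36-base exon (chromosome 20, 23688655 to 23688690, plus strand) had shares of 80.3% and 75.7% in injured SIS3 and injured DMSO hearts, against 46.8% and 46.9% in uninjured SIS3 and uninjured DMSO hearts. Its skipping form was lower after injury, at 10.1 and 8.77 FPKM in injured SIS3 and injured DMSO, against 30.9 and 26.4 FPKM in uninjured SIS3 and uninjured DMSO hearts. The exon of vaspb, a protein that helps actin filaments grow (57 bases, chromosome 18, 40781669 to 40781725, minus strand), was at 41.0% and 41.5% in injured SIS3 and injured DMSO, against 14.8% and 19.5% in uninjured SIS3 and uninjured DMSO hearts. For lsp1b, related to an actin-binding protein of white blood cells, a 39-base exon (chromosome 7, 39150082 to 39150120, plus strand) was at 38.5% and 61.7% in injured SIS3 and injured DMSO, against 99.6% and 92.2% in uninjured SIS3 and uninjured DMSO hearts. The sum of its forms was higher after injury, with log2 differences of 1.46 in SIS3 and 0.88 in DMSO, as were the macrophage markers, and the part of these cells in the share was not tested. Spectrin and lsp1b thus skipped their exon more often after injury, and PALLD and vaspb included theirs more often.

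**Figure D5:**
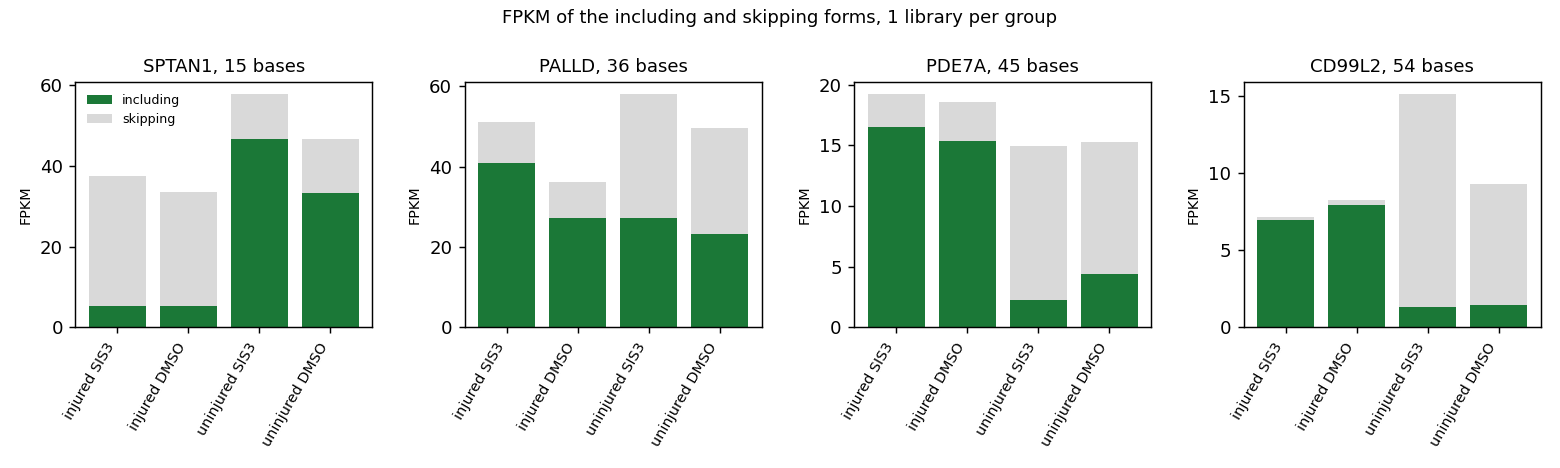
FPKM of the including form (green) and of the skipping form (grey), stacked, for short exons of SPTAN1, PALLD, PDE7A and CD99L2 in the 4 libraries (x axis), 1 library per group. In SPTAN1 the including form is at 5.31 and 5.29 FPKM in injured SIS3 and injured DMSO, against 46.8 and 33.3 FPKM in uninjured SIS3 and uninjured DMSO hearts.

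Exons of cell surface and matrix genes moved in both directions. CD99L2 (ENSDARG00000056722), a membrane protein with a role in white blood cell passage through vessel walls in mammals, had the widest separation of the 17. Its 54-base exon (chromosome 7, 25614937 to 25614990, minus strand) was included at 97.5% and 95.9% in injured SIS3 and injured DMSO, against 8.92% and 15.7% in uninjured SIS3 and uninjured DMSO hearts. The skipping form was at 0.182 and 0.342 FPKM in injured SIS3 and injured DMSO, against 13.8 and 7.82 FPKM in uninjured SIS3 and uninjured DMSO hearts. The including form, at 6.97 and 7.92 FPKM in injured SIS3 and injured DMSO, against 1.35 and 1.45 FPKM in uninjured SIS3 and uninjured DMSO hearts, was the more common one after injury only. In HSPG2, which encodes the basement membrane proteoglycan perlecan, a 60-base exon (chromosome 23, 26662897 to 26662956, minus strand) was at 27.5% and 39.5% in injured SIS3 and injured DMSO, against 62.7% and 67.3% in uninjured SIS3 and uninjured DMSO hearts. In bcam, a laminin-binding adhesion molecule, a 21-base exon (chromosome 16, 24115861 to 24115881, minus strand) was not listed in either injured library and stood at 34.2% and 23.8% in uninjured SIS3 and uninjured DMSO hearts. The perlecan and bcam exons thus had lower shares after injury, where that of CD99L2 was higher.

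Among signalling genes, PDE7A (ENSDARG00000045305) encodes a phosphodiesterase that breaks down cyclic AMP. Its 45-base exon (chromosome 24, 24601966 to 24602010, minus strand) was at 85.7% and 82.8% in injured SIS3 and injured DMSO, against 15.3% and 28.8% in uninjured SIS3 and uninjured DMSO hearts. Both forms changed places, with including values of 16.5 and 15.4 FPKM in injured SIS3 and injured DMSO, against 2.29 and 4.41 FPKM in uninjured SIS3 and uninjured DMSO hearts. The kinase gene mark3a, whose family acts on microtubule-binding proteins, had a 27-base exon (chromosome 13, 15527303 to 15527329, plus strand) at 68.9% and 81.8% in injured SIS3 and injured DMSO, against 45.5% and 39.9% in uninjured SIS3 and uninjured DMSO hearts. With a nearer right flank, the same exon was at 59.3% and 99.7% in injured SIS3 and injured DMSO, against 24.8% and 76.7% in uninjured SIS3 and uninjured DMSO hearts, so that the groups overlapped. For the phosphatase gene CTDSPL, a 33-base exon (chromosome 2, 21710257 to 21710289, plus strand) was at 77.4% and 74.1% in injured SIS3 and injured DMSO, against 49.9% and 53.9% in uninjured SIS3 and uninjured DMSO hearts.

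In mdm2, the ubiquitin ligase that acts on p53, a 33-base exon (chromosome 4, 23412364 to 23412396, plus strand) was at 10.7% and 10.2% in injured SIS3 and injured DMSO, against 36.3% and 40.2% in uninjured SIS3 and uninjured DMSO hearts. The 39-base exon of ndrg3a, a member of the N-myc downstream-regulated family (chromosome 11, 24898224 to 24898262, plus strand), was not listed in either injured library, against 25.6% and 28.0% in uninjured SIS3 and uninjured DMSO hearts. DENND5B, an activator of Rab proteins in vesicle traffic, had a 42-base exon (chromosome 4, 16667996 to 16668037, minus strand) at 96.3% and 89.1% in injured SIS3 and injured DMSO, against 34.6% and 62.0% in uninjured SIS3 and uninjured DMSO hearts. Its forms summed to a mean of 4.11 FPKM, near the minimum. The endocytic adaptor gene ldlrap1a held the one exon of the 17 whose length is not a multiple of 3, of 32 bases (chromosome 19, 29772852 to 29772883, plus strand), at 15.9% and 16.9% in injured SIS3 and injured DMSO, against 41.6% and 45.8% in uninjured SIS3 and uninjured DMSO hearts.

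A further 3 of the 17 exons lay in CHCHD3, GMDS and EDEM3. CHCHD3, a protein that shapes the inner mitochondrial membrane, had a 15-base exon (chromosome 4, 15532668 to 15532682, minus strand) at 27.5% and 25.8% in injured SIS3 and injured DMSO hearts, and it was not listed in either uninjured library. The skipping form was at 14.4 and 14.2 FPKM in injured SIS3 and injured DMSO, against 33.5 and 29.0 FPKM in uninjured SIS3 and uninjured DMSO hearts. In GMDS, an enzyme of GDP-fucose synthesis, a 21-base exon (chromosome 20, 26909817 to 26909837, minus strand) was at 12.6% and 22.1% in injured SIS3 and injured DMSO, against 43.3% and 42.4% in uninjured SIS3 and uninjured DMSO hearts. EDEM3, which trims sugars from misfolded proteins, had a 48-base exon (chromosome 8, 19442054 to 19442101, minus strand) that was not listed in either injured library, against 45.7% and 29.7% in uninjured SIS3 and uninjured DMSO hearts. For the 17 exons the log2 difference of the scaled sum of both forms lay between -1.05 and 1.46 for injury in SIS3 and between -2.09 and 1.18 for injury in DMSO, so that the level of the transcripts went both ways.

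Another 10 short exons were past 20 points in the same direction under both compounds without that gap. MYOM1 encodes myomesin, which links thick filaments at the M-band of the sarcomere, and its 24-base exon (chromosome 7, 71543782 to 71543805, minus strand) was at 66.4% and 60.2% in injured SIS3 and injured DMSO, against 45.5% and 27.5% in uninjured SIS3 and uninjured DMSO hearts. A 42-base exon of actb1, a cytoplasmic actin gene (chromosome 1, 7966603 to 7966644, minus strand), was at 41.0% and 28.7% in injured SIS3 and injured DMSO, against 12.2% and 3.24% in uninjured SIS3 and uninjured DMSO hearts. Both had injured shares above the uninjured ones without overlap. The closely related gene actb2 makes the assignment of reads to actb1 uncertain. The other exons with higher shares after injury lay in mark3a (the nearer flank given above), sh3bgr, ATP6V1H, ZC2HC1A and USP10. Those with lower shares lay in ROBO2, ppip5k1b and si:ch73-103b11.2. Of the 10, only the mark3a entry had injured and uninjured shares that overlapped. The 60-base exon of USP10, a deubiquitinase, was at 88.2% and 82.8% in injured SIS3 and injured DMSO, against 64.5% and 59.6% in uninjured SIS3 and uninjured DMSO hearts. The 27-base exon of ROBO2, an axon guidance receptor, was at 43.2% and 19.5% in injured SIS3 and injured DMSO, against 63.4% and 60.2% in uninjured SIS3 and uninjured DMSO hearts.

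By likeness of the 4 shares over all 646 exons, taken as the summed absolute difference over the 4 libraries, the exon nearest to PALLD was that of CTDSPL at 14.6 points, and the nearest to PDE7A was that of CD99L2 at 44.3 points. The exon most like the 15-base one of SPTAN1 was a 24-base exon of alpk3a, at 50.7 points. For the lsp1b exon separated by injury, the nearest was an exon of MAST2, at 46.5 points. The distance for SPTAN1 was thus of a like size to those for PDE7A and lsp1b. No limit for a close match was set.

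The compound comparisons asked how shares differed between SIS3 and DMSO at the same state of injury. In 6 short exons both SIS3 shares lay at least 20 points beyond both DMSO shares. Of these, 4 lay above (0.619% of the 646, beside 0.656% of all 1678 cassette exons) and 2 below (0.310% beside 0.477%). Setting the libraries by compound in this way was chosen after the shares had been seen. The exon with the highest FPKM among the 6 was in hmgn7, which encodes a nucleosome-binding protein. Its 36-base exon (chromosome 5, 22467331 to 22467366, plus strand) was included at 5.54% and 2.48% in injured SIS3 and uninjured SIS3, against 39.1% and 40.4% in injured DMSO and uninjured DMSO hearts. The including form was at 10.4 and 4.58 FPKM in injured SIS3 and uninjured SIS3, against 85.9 and 85.3 FPKM in injured DMSO and uninjured DMSO hearts. That SIS3 and DMSO hearts did not overlap here follows from the rule that chose these 6 exons.

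The 48-base exon of SPTAN1 was at 100% and 92.8% in injured SIS3 and uninjured SIS3, against 69.7% and 71.0% in injured DMSO and uninjured DMSO hearts. MLLT10, a chromatin reader, had a 24-base exon (chromosome 24, 17067154 to 17067177, plus strand) at 72.8% and 88.1% in injured SIS3 and uninjured SIS3, against 19.1% and 29.1% in injured DMSO and uninjured DMSO hearts. The tight junction scaffold gene tjp1b had a 36-base exon (chromosome 25, 31816884 to 31816919, plus strand) at 41.1% and 42.5% in injured SIS3 and uninjured SIS3, against 13.9% and 15.9% in injured DMSO and uninjured DMSO hearts. These 3 exons were thus more included under SIS3, in both states of the heart.

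The splicing factor gene srsf7a had a 39-base exon at 93.0% and 98.0% in injured SIS3 and uninjured SIS3, against 72.7% and 48.1% in injured DMSO and uninjured DMSO hearts. The microtubule-binding gene EML1 had a 27-base exon at 21.2% and 22.4% in injured SIS3 and uninjured SIS3, against 57.4% and 49.6% in injured DMSO and uninjured DMSO hearts. With 1 FPKM added to each form, the exons of EML1, srsf7a and tjp1b came closer than 20 points.

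Many of the largest differences belonged to 1 library. PTBP1 (ENSDARG00000031907) encodes a repressor of alternative exons that in mammals also controls an exon in its own transcript. Its 34-base exon (chromosome 11, 14276982 to 14277015, plus strand) was at 19.7% in injured SIS3 hearts, against 99.4%, 99.4% and 99.3% in injured DMSO, uninjured SIS3 and uninjured DMSO hearts. The gene itself was at 17.6, 13.0, 12.5 and 11.0 FPKM in the same order. Whether this exon matches the one known in mammals was not examined.

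The injured SIS3 library also stood alone for the RNA helicase gene ddx3xb, whose 51-base exon was at 66.1%, against 0.742%, 11.4% and 5.26% in injured DMSO, uninjured SIS3 and uninjured DMSO hearts. The histone demethylase gene KDM5B had a 57-base exon at 91.5% in injured SIS3, against 50.9%, 37.4% and 41.1% in the other libraries in that order. The injured DMSO library stood alone for zgc:66433, with a 57-base exon at 79.4%, against 0.739%, 0.460% and 6.03% in injured SIS3, uninjured SIS3 and uninjured DMSO hearts. There the single high library set both the injury difference and the compound difference, since these comparisons share it.

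In uninjured DMSO hearts the 48-base exon of TPD52L2, a gene of vesicle traffic, was at 83.2%, against 13.5%, 3.61% and 1.31% in injured SIS3, injured DMSO and uninjured SIS3 hearts. The same library held the high value of a 60-base exon of elavl1a, an RNA-stabilising protein, at 79.8%, against 0.520%, 8.57% and 0.694% in the same order. It held the low value for LMO7, a protein of cell junctions and the nuclear envelope, whose 51-base exon was at 46.7%, with the skipping form not listed in the other libraries. Uninjured SIS3 hearts stood alone for SERPINH1, a collagen chaperone, with a 48-base exon at 72.4%, against 26.9%, 25.3% and 21.7% in injured SIS3, injured DMSO and uninjured DMSO hearts. Each of the 4 libraries thus had exons at which it alone differed.

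The remaining exons among the 6 largest in a comparison are given by their differences. For injury in DMSO, the share was higher by 93.8 points in si:ch211-59c24.3 and by 70.7 points in ddx3xa. In that comparison SLIT2, an axon guidance ligand, differed by -72.4 points, elnb, an elastin gene, by -56.7 points, and a 45-base exon of mark3a by -51.4 points. For injury in SIS3, SVIL, an actin-binding protein of the membrane skeleton, differed by 51.9 points, and a 24-base exon of the muscle kinase gene alpk3a by -60.6 points. For SIS3 after injury, ACACA differed by 56.2 points, ATP11A by 54.1 and GLYR1 by 46.6, while CTNND1, a catenin of cell junctions, differed by -65.5 points and the transcription factor gene SOX6 by -60.4 points. For SIS3 without injury, cdk5rap2 differed by -48.3 points, pcdh1g32 by -47.1 and SEPTIN6 by -46.6 points. The same comparison had SCRIB, a polarity protein, at 93.5 points and homer3b at 65.9 points. A form was not listed in a library of the given comparison for si:ch211-59c24.3, ddx3xa, SLIT2, elnb, ATP11A, CTNND1, SOX6, cdk5rap2 and homer3b. Those differences can therefore rest on a failed estimate.

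Host gene lists placed 87 of these short exons in families that matter to heart cells. Their counts are read beside the shares of all cassette exons past 20 points, which were 7.09% higher and 8.64% lower for injury in SIS3, and 7.33% higher and 9.71% lower for injury in DMSO. With lists of 5 to 25 exons, such shares amount to few exons or none. Genes of the contractile apparatus and Z-disc held 19 short exons, of which 2 were higher and 1 lower in injured hearts under each compound. Only the MYOM1 exon was called in the same direction under both. In DMSO the others were a 51-base LMO7 exon, at 53.3 points, and the SVIL exon, at -22.7 points. In SIS3 they were the SVIL exon, at 51.9 points, and a 57-base LMO7 exon, at -31.2 points. The median share of the 19 was 66.4% and 70.9% in injured SIS3 and injured DMSO, against 61.3% and 47.7% in uninjured SIS3 and uninjured DMSO hearts. Beside MYOM1, a 42-base exon of LMO7 was at 86.5% and 88.7% in injured SIS3 and injured DMSO, against 69.0% and 69.6% in uninjured SIS3 and uninjured DMSO hearts, which is short of 20 points.

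Calcium and ion transport genes held 5 short exons, and 1 of them was lower for injury in DMSO and none was past 20 points for injury in SIS3. The exon concerned, of 48 bases in the T-type calcium channel gene CACNA1G, was not listed in either injured library, against 14.4% and 32.9% in uninjured SIS3 and uninjured DMSO hearts. The potassium channel gene kcnq1.1 kept a 36-base exon at 92.4%, 92.9%, 96.0% and 90.3% in injured SIS3, injured DMSO, uninjured SIS3 and uninjured DMSO hearts. A 45-base exon of camk2g2, a calcium-dependent kinase, was at 10.1%, 5.26%, 7.07% and 14.0% in that order. The kcnq1.1 and camk2g2 exons did not differ by 20 points in any comparison.

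Cytoskeleton and traffic genes held 25 short exons, with 2 higher and 2 lower for injury in SIS3 and 1 higher and 2 lower for injury in DMSO. Beside SPTAN1, an 18-base exon of EXOC1, a subunit of the exocyst, was at 0.632% and 1.07% in injured SIS3 and injured DMSO, against 18.4% and 19.3% in uninjured SIS3 and uninjured DMSO hearts. A 45-base exon of EXOC1 was at 16.7% and 0.0498% in injured SIS3 and injured DMSO, against 37.99% and 18.4% in uninjured SIS3 and uninjured DMSO hearts. The microtubule-binding gene CLASP2 had a 42-base exon at 63.8% in uninjured DMSO hearts, with no skipping form listed in the other libraries. Both EXOC1 exons had lower shares in the injured than in the uninjured hearts without overlap, and for the 45-base one the nearest injured and uninjured shares were almost equal.

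Adhesion and signalling genes held 18 short exons. For injury in SIS3, 2 were higher and 4 lower, and for injury in DMSO 4 were higher and 2 lower. The 2 higher in SIS3, and 2 of the 4 higher in DMSO, are the same mark3a exon with different flanks. A 27-base exon of the calcineurin gene ppp3cca was not listed in either injured library, against 13.8% and 28.9% in uninjured SIS3 and uninjured DMSO hearts. RNA-binding and chromatin genes held 20, with 0 higher and 2 lower for injury in SIS3 and 1 higher and 2 lower for injury in DMSO.

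MBNL1, a splicing regulator of muscle, had a 36-base exon (chromosome 2, 47967190 to 47967225, plus strand) at 68.2% and 57.1% in injured SIS3 and injured DMSO, against 85.9% and 88.7% in uninjured SIS3 and uninjured DMSO hearts. A 54-base exon of MBNL1 was at 34.5% and 57.3% in injured SIS3 and injured DMSO, against 56.4% and 59.6% in uninjured SIS3 and uninjured DMSO hearts. A 42-base exon of the splicing protein gene HNRNPM was at 77.5% and 46.3% in injured SIS3 and injured DMSO, against 85.5% and 89.2% in uninjured SIS3 and uninjured DMSO hearts. The 36-base MBNL1 exon and the HNRNPM exon had lower shares in both injured libraries than in both uninjured ones, and the difference passed 20 points in DMSO alone.

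Genes with several short exons showed how closely placed exons can differ. MARK2, a kinase of the same family as mark3a, had 5 entries at overlapping positions on chromosome 21. Its 27-base exon was at 89.95%, 86.6%, 81.1% and 100% in injured SIS3, injured DMSO, uninjured SIS3 and uninjured DMSO hearts with the nearer left flank. With the farther left flank it was at 1.88%, 9.69%, 11.8% and 7.20% in that order. In RXRB, a nuclear receptor gene, a 49-base exon was at 61.1%, 62.2%, 16.5% and 49.3%, and a 42-base exon at 39.6%, 50.4%, 43.3% and 44.2%. A share thus depends on the flanks it is taken between, and 31 of the 646 exons share their skipping entry with another.

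The levels of known splicing regulators were given beside these shares. Of the 6 neural regulators compared, 4 were at least 2-fold lower for injury in SIS3 and 3 for injury in DMSO, where 6.45% and 8.57% of 12795 genes were lower. None was higher, where 6.32% of all genes were in SIS3 and 6.38% in DMSO. ELAVL3 was not listed in either injured library, against 6.07 and 6.43 FPKM in uninjured SIS3 and uninjured DMSO hearts, and srrm4 was not listed in either injured library, against 0.691 and 0.674 FPKM. ELAVL3 and ELAVL4, which make up a pair of these calls under each compound, are also on the list of neural markers.

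Of 10 regulators known from heart and muscle, 2 were lower for injury in SIS3 and 3 for injury in DMSO, and none was higher. Among all 12795 genes compared, 6.45% and 8.57% were lower in the same order. The muscle gene rbfox1l was at 222 and 167 FPKM in injured SIS3 and injured DMSO, against 343 and 382 FPKM in uninjured SIS3 and uninjured DMSO hearts, with log2 differences of -0.70 in SIS3 and -1.42 in DMSO. CELF2 differed by -1.08 in SIS3 and -1.12 in DMSO on the log2 scale, and RBFOX1 by -1.53 and -1.32 in the same order. The level of RBFOX1 was low, at 0.486 and 0.776 FPKM in injured SIS3 and injured DMSO hearts. It was at 3.20 and 3.04 FPKM in uninjured SIS3 and uninjured DMSO hearts. Among 3 epithelial regulators, RBM47 was at 10.2 FPKM in injured DMSO hearts, against 2.45 FPKM in uninjured DMSO hearts, and none passed 2-fold in SIS3. None of 10 widely expressed regulators passed 2-fold under either compound. Any link between a regulator and an exon was not tested.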

How the data were processed

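RNA from larval zebrafish hearts of 4 groups was sequenced, with 1 library each. Per the file headers, the deposited tables give an FPKM for each transcript event, such as an including or skipping form of an exon; the authors computed these values, and only those above 0 are listed. Tools in the submitters' processing notes are HISAT2 2.0.5, CASAVA 1.8 and HTSeq 0.6.1, with GRCz10 as genome build; which of them, if any, made the event tables is not stated there. The values are estimates summed over transcripts and not junction reads. In each library, 12.5% to 15.4% of the including values and 15.5% to 26.0% of the skipping values equalled a first-exon or last-exon value of the same locus.

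Repeated entries (293 to 346 per library) were used once. Including and skipping entries were joined on locus, exon and flanking exon ends, and a form not listed was set to 0. Inclusion shares needed no scaling between libraries. Gene levels, used for markers and regulators, were the larger of the summed first-exon and last-exon FPKM, scaled by median ratio and compared as log2(FPKM + 1) for genes averaging 1 FPKM or more. The sum of both forms of an exon was compared on the same scale. FPKM printed in the text are as deposited. Python 3.11.15, pandas 2.3.3 and numpy 2.4.6 were used, and the steps were tested on simulated data.

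The members and gene lists were chosen with earlier results of these data known. Named exons were the 6 largest differences in each direction of each comparison, all past 20 points in both injury comparisons, up to 4 of each host list, the 6 shortest, and 3 on either side of the length limit. Exons given by compound alone, by the number of exons in a gene, or in the closing part by level were chosen after their values were seen. Alternatives changed the FPKM minimum, a pseudocount, listing, exons that share a skipping entry, the size of the call and the length limit.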

Additional observations from a re-analysis of the deposited data

Results flagged for a closer look

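In 13 of 646 short exons, beside 10 of 1032 longer ones, the injury difference was past 20 points in opposite directions under the 2 compounds, and this contrast was not tested, since each group had 1 library. Each value here is the injury difference in SIS3 minus that in DMSO, in percentage points. It was negative in SCRIB (-138.5), ELOVL1 (-101.6), NDRG3 (-82.4), the 23-base exon of lsp1b (-71.7), palm2akap2 (-70.3), SOX6 (-65.0), TWF2 (-56.7) and VIRMA (-55.8). It was positive in SVIL (74.6), SEPTIN6 (72.8), tpd52l2a (59.3), map4k2 (53.5) and ENAH (41.3).

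In the 8 exons with a negative value the injured DMSO and uninjured SIS3 libraries had the higher shares. The NDRG3 exon of 18 bases was at 53.4% and 29.0% there, and it was not listed in injured SIS3 or uninjured DMSO hearts. The SCRIB exon of 34 bases was at 32.3% in injured SIS3, 77.3% in injured DMSO, 93.8% in uninjured SIS3 and 0.298% in uninjured DMSO hearts. In the 5 exons with a positive value the injured SIS3 and uninjured DMSO libraries had the higher shares. Both patterns follow largely from the rule that chose these exons. The SEPTIN6 exon of 46 bases was at 78.0% in injured SIS3, 51.7% in injured DMSO, 53.4% in uninjured SIS3 and 99.99% in uninjured DMSO hearts.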

How the results depend on the processing

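No paired analysis was possible because every group had 1 library, so no library could be left out either, and no scaling was needed for shares. Counts of short exons are given in the order injury in DMSO, injury in SIS3, SIS3 after injury, SIS3 without injury, both injured shares above or below both uninjured shares, and both SIS3 shares above or below both DMSO shares. The last pair was added after the data were seen. As reported they were 127, 119, 89, 109, 8, 9, 4 and 2. A minimum of 1 FPKM gave 205, 196, 157, 172, 17, 22, 7 and 8 of 866 exons. A minimum of 5 FPKM gave 89, 77, 59, 71, 7, 6, 4 and 1 of 479. A minimum of 10 FPKM gave 42, 43, 28, 33, 6, 3, 2 and 1 of 278. With 1 FPKM added to each form they were 87, 81, 59, 68, 5, 5, 2 and 1. Exons with both forms listed in all 4 libraries gave 69, 74, 51, 57, 7, 6, 3 and 2 of 334. A call at 10 points gave 263, 257, 226, 240, 27, 41, 17 and 15, and a call at 30 points 57, 54, 46, 53, 2, 2, 1 and 1. Exons of up to 30 bases gave 45, 39, 27, 43, 2, 3, 1 and 1 of 204. The minima, the listing rule and the length limit also changed how many exons were compared. Using 1 exon per skipping entry left every count within 1.5 times. Of these settings, only the added 1 FPKM changes a share, while the others choose which exons are kept or called. With 1 FPKM added, no difference of a named exon changed sign while called, and 23 called differences were no longer past 20 points. Of the 17 exons separated by injury, 10 stayed separated then. The minima of 5 and 10 FPKM kept 13 and 9 of the 17, and these cannot lose their gap, since their shares are unchanged. Depth is unknown, which limits the shares of exons near 3 FPKM most.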

Other observations

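Among the 5 short exons with the highest FPKM over both forms, chosen after their values were seen, the libraries differed in several ways. A 44-base exon of actb2 was at 0.280% and 2.41% in injured SIS3 and injured DMSO, against 11.5% and 12.5% in uninjured SIS3 and uninjured DMSO hearts, the opposite order to the 42-base exon of actb1. The near-identical sequences of the 2 actin genes make the split of reads between them uncertain. A 29-base exon of RPS24, a protein of the small ribosomal subunit, was at 26.8% and 72.7% in injured SIS3 and injured DMSO, against 34.4% and 3.98% in uninjured SIS3 and uninjured DMSO hearts. A 54-base exon of RPL14, a protein of the large ribosomal subunit, was at 100%, 89.3%, 100% and 100% in injured SIS3, injured DMSO, uninjured SIS3 and uninjured DMSO hearts. NMRK2, a muscle kinase of nicotinamide riboside, had a 49-base exon at 90.03% and 90.1% in injured SIS3 and injured DMSO, against 100% in both uninjured libraries. A 45-base exon of DES, which encodes the muscle filament protein desmin, was at 53.9% and 53.8% in injured SIS3 and injured DMSO, against 72.3% and 65.1% in uninjured SIS3 and uninjured DMSO hearts.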
